A study of Mus musculus with 80 samples.

Results

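Old HSCs recovered from the bone marrow of irradiated mice a few days after transplantation were compared with young HSCs sorted straight from resting marrow. The comparison used 9 bulk RNA libraries of the 80 samples in the series. 3 libraries came from transplanted old CD150low HSCs, 3 from transplanted old CD150high HSCs and 3 from young fresh HSCs. All mice were male C57BL/6, the young ones 2 to 3 months old and the old donors 22 to 24 months old by the methods text, while a supplementary sample list gives wider ranges. HSCs were sorted as Lin-Sca-1+c-Kit+ cells lacking CD48 and CD34 and carrying CD150. The old donor cells (CD45.2) were split by their CD150 level, injected into lethally irradiated CD45.1 recipients and sorted again as donor cells. The sample labels place that second sort on day 4, whereas the names of the tables state a slightly later time, and the markers of that second gate are not given in the sources used here. The study calls the recovered cells donor HSCs, whereas a supplementary sample list names HSPCs, a wider set of stem and progenitor cells. The 3 fresh old HSC libraries were used as a reference point for the state before transplantation. No transplanted young HSCs were analysed here, so age, transplantation, the irradiated host and the separate experiments cannot be told apart in this comparison.

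HSCs sustain blood formation for life and spend most of their time out of the cell cycle. With age their number in the marrow grows, while genes such as *Selp*, *Clu*, *Aldh1a1* and *Nupr1* become more active in them. After transfer into an irradiated host, HSCs leave quiescence, replicate their DNA and build ribosomes and mitochondria to rebuild the blood. The question put to these libraries was which features of old HSCs were no longer seen in the activated cells and which were still above the level of young HSCs.

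Expression was given as FPKM, which scales the fragments of a gene to its transcript length and to the library total, for 21825 genes. A gene was tested if its mean reached 1 FPKM in at least 1 of the 3 groups, which left 11481 genes. Differences are log2 fold changes on the log2(FPKM + 1) scale, which understates the change of weakly expressed genes. A gene was called higher or lower if its Benjamini-Hochberg adjusted p in limma was under 0.05 and it differed by more than 2-fold. Depth was judged from the most common ratio between libraries of values under 0.3 FPKM and set relative to the first young library. It was 1.00 to 1.12 in young and 0.52 to 0.60 in transplanted libraries, so weakly expressed genes carried more error after transplantation. Libraries of one group correlated across genes with r = 0.988 to 0.989 (young), 0.983 to 0.985 (CD150low) and 0.977 to 0.987 (CD150high), and genes are not independent replicates. The labels do not say whether the 3 libraries of a group came from separate mice, so p-values measure only the spread between these samples. Because all 13 genes of the mitochondrial genome are listed at 0 throughout, a 0 does not show that a transcript was missing. Young replicate 3 stood apart for immediate early genes, and the transplanted libraries carried varied levels of macrophage transcripts.

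Compared with young HSCs, transplanted old HSCs had 488 genes called higher (4.25% of those tested) and 701 called lower (6.11%). *Mt2*, a zinc-binding metallothionein, and *Gem*, a small GTPase, had the largest rises, and both belong to the published genes of HSC aging. The chemokine gene *Ccl4*, the cytokine gene *Ltb* and the glucocorticoid-induced gene *Tsc22d3* were among the largest falls. *Ccl4* stood at 96.7, 94.8 and 133.9 FPKM in the young libraries and at 2.36 to 8.80 (median 5.32) in the 6 transplanted libraries. *Ltb* stood at 202.4, 197.5 and 228.2 against 8.59 to 39.5 (median 13.8), and *Tsc22d3* at 303.3, 403.1 and 463.7 against 21.9 to 47.6 (median 45.7). None of these ranges overlapped. Their log2 fold changes were -4.14 (SE 0.277), -3.76 (SE 0.364) and -3.27 (SE 0.200). Fresh old HSCs held 85.6 ± 18.4 FPKM of *Ccl4* and 155.4 ± 6.09 FPKM of *Ltb* (SD, n = 3), at -0.34 and -0.43 from young, neither called. Scaling all libraries to the same quantiles moved the split to 542 higher and 584 lower and the median of all genes from -0.04 to 0.

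Of 99 published genes that increase in aged HSCs and are present in the tables, 73 were tested. The list was derived from other samples. After transplantation 13 of the 73 (17.8%) were called higher than in young HSCs, 7 (9.59%) were called lower and 53 were not called. The median log2 fold change of the 73 was 0.22, against -0.04 for all genes tested. All 6 transplanted libraries lay above all 3 young ones for 16 of the genes and below them for 12, where 15.5% and 14.4% of all tested genes did so. For 26 of the 73 tested genes the 95% interval of the difference stayed within 2-fold of young HSCs without a call. Over all genes this held for 6779 of the 11481 tested (59.0%). The other 27 of the 53 uncalled list genes had wider intervals, and a difference of 2-fold could not be judged for them. In fresh old HSCs, by contrast, 75 of the 88 list genes tested were called higher than in young HSCs (median 1.62), where 1.92% of 11279 tested genes were called higher and 1.73% lower. At least 17 of the 88, such as *Gpr183*, reached a mean of 1 FPKM in fresh old but not in young HSCs. They entered that test through the group where they were high. Without the 1 FPKM limit, 30 list genes were called higher than young in fresh old HSCs and 11 after transplantation. Both comparisons share the 3 young libraries. The FPKM of the 99 genes summed to 996.5 to 1163.5 in young, 4635.5 to 5114.6 in fresh old, 1344.8 to 1746.5 in transplanted CD150low and 2271.1 to 2297.3 in transplanted CD150high libraries. Such sums are weighted towards genes with high FPKM. The FPKM of all genes summed to 606004.6 to 622126.7 in young, 593025.1 to 644019.9 in fresh old and 688567.3 to 723258.7 in transplanted libraries. Sums over lists, here and below, are not corrected for these totals. After transplantation a large part of the sums of the 99 genes came from *Gem*, which was higher than in fresh old HSCs, and the metallothionein gene *Mt1*. The median log2 fold change of the 73 tested genes against young was -0.07 in CD150low and 0.37 in CD150high libraries. In bulk samples a loss of cells with a high level and a lower level in each cell cannot be told apart.

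**Figure D1:**
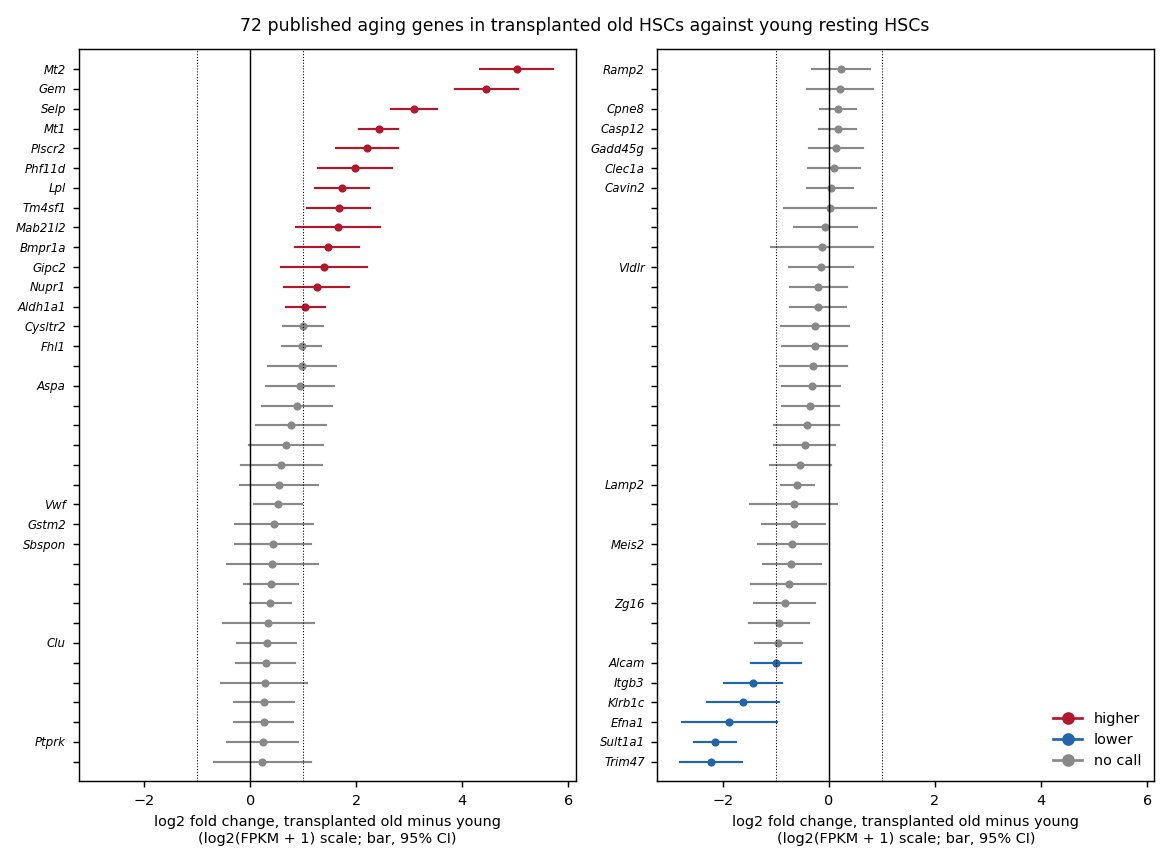
Log2 fold change of 72 of the 73 tested published HSC aging genes, transplanted old minus young HSCs, on the log2(FPKM + 1) scale, with 95% intervals. Points are genes in order of their change, red for the 13 called higher, blue for 6 of the 7 called lower and grey for the 53 not called, labelled where the text names them, from *Mt2* at 5.03 to *Trim47* at -2.23.

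The aging genes that stayed above young HSCs were led by the metallothioneins, *Gem* and *Selp*. *Selp* encodes P-selectin, an adhesion receptor. It stood at 1.8, 1.8 and 3.1 FPKM in young HSCs and at 36.2, 42.3 and 51.9 in fresh old HSCs. After transplantation it stood at 26, 28.6 and 22.3 in CD150low and at 32.8, 23.7 and 25.1 in CD150high libraries. All 6 were thus far above the young range and below the fresh old one. The log2 fold change was 3.09 (SE 0.198, limma adjusted p = 1.32e-06) against young and -0.69 (adjusted p = 0.00489) against fresh old HSCs, the latter short of 2-fold. *Gem* behaved differently, because it was higher than in either fresh group. It stood at 7.5, 19.6 and 16.1 FPKM in young, 33.1, 39.9 and 35.3 in fresh old, 382.0, 187.1 and 311.4 in transplanted CD150low and 450.8, 349.8 and 277.4 in transplanted CD150high libraries. The rise of *Gem* was 4.45 (SE 0.275) over young and 3.09 over fresh old HSCs, and *Gem* was the only list gene of 90 tested called higher after transplantation than before it. 

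*Mt1* and *Mt2*, neighbouring genes of proteins that bind zinc and copper, were also still high. *Mt2* stood at 0.2, 0.6 and 2.4 FPKM in young HSCs and at 83.5, 89.5 and 115.6 in fresh old HSCs. It stood at 62.8, 37.2 and 28.3 in transplanted CD150low and at 83.0, 77.5 and 106.6 in transplanted CD150high libraries. The highest CD150high library thus lay inside the range of fresh old HSCs. *Mt1* stood at 56.8, 61.5 and 99.5 FPKM in young, 375.0, 451.5 and 510.3 in fresh old, 294.7, 344.9 and 239.2 in CD150low and 485.4, 455.2 and 571.6 in CD150high libraries. The log2 fold changes against young were 5.03 (SE 0.315) for *Mt2* and 2.42 (SE 0.169) for *Mt1*, with limma adjusted p = 1.24e-06 and 2.08e-06. Against fresh old HSCs they were -0.66 and -0.21, and neither was called. *Mt3*, another member, was also called higher at a low level (0.42, 0.17 and 0.62 FPKM in young against 0.48 to 3.9 after transplantation), with overlapping ranges and its call was lost when any of 5 libraries was left out, young ones included. Metallothionein genes are switched on by the factor MTF1 through metal response elements with the core TGCNCNC. The RefSeq promoter windows of both genes, 250 bases before to 50 after the start on the plus strand of GRCm38.p6, are printed with each match of this core on either strand in capitals, at chr8:94178839-94179138 for *Mt1* and chr8:94172368-94172667 for *Mt2*.
Mt1: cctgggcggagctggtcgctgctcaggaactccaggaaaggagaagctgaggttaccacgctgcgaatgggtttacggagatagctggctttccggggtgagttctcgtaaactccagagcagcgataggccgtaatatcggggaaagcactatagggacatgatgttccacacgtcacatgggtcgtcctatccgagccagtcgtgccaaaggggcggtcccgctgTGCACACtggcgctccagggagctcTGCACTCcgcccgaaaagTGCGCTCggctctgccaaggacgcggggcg
Mt2: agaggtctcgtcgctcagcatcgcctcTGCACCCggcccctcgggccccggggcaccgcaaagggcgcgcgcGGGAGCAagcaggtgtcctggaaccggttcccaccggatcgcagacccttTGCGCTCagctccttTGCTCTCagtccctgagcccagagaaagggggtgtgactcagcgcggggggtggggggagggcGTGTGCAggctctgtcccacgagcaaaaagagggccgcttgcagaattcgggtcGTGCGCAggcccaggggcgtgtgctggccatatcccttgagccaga
The *Mt1* window holds 3 matches and the *Mt2* window holds 6. The core is short and was present in 63.5% of the 9210 tested genes with a promoter entry and in 67.6% of the 71 list genes with one. It was found in 9 of 9 called-higher and 2 of 5 called-lower list genes that had an entry, counts that describe these windows only.

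The other list genes called higher were *Plscr2*, *Phf11d*, *Lpl*, *Tm4sf1*, *Mab21l2*, *Bmpr1a*, *Gipc2*, *Nupr1* and *Aldh1a1*. *Nupr1*, a stress-induced chromatin protein, stood at 53.4, 94.6 and 102.2 FPKM in young and at 712.9, 1207.2 and 806.4 in fresh old HSCs. The 6 transplanted libraries ranged from 119 to 333 (median 172), above every young and below every fresh old library. Its log2 fold change was 1.26 (SE 0.283) against young and -2.19 against fresh old HSCs, and without young replicate 1 it was 0.97, short of 2-fold. *Aldh1a1*, a retinaldehyde dehydrogenase, stood at 40.1, 39.6 and 41.6 FPKM in young, 118.9, 90.1 and 105.3 in fresh old and 65.4 to 124 (median 81.1) in transplanted libraries. It was 1.04 (SE 0.169, limma adjusted p = 0.000601) above young and -0.30 from fresh old HSCs (adjusted p = 0.192). *Aldh1a1* thus sat just over the 2-fold limit. *Cysltr2* (1.00) and *Fhl1* (0.97) sat just under it, with all 6 transplanted libraries above the young ones. *Tm4sf1*, a membrane protein of the tetraspanin-like L6 family, had young values of 10.3, 8.5 and 4.6 FPKM against 14.9 to 46.2 (median 21.9), and *Plscr2*, a phospholipid scramblase, 5.6, 3.8 and 9.6 against 23.0 to 40.5 (median 32.3). Both were called lower than in fresh old HSCs as well, at -1.46 and -1.72. *Bmpr1a*, a receptor for bone morphogenetic proteins, rose from 0.12 to 0.38 FPKM in young HSCs to 1.44 to 3.80 (median 2.53). *Lpl*, lipoprotein lipase, stood at 1.7, 1.8 and 2.1 FPKM in young and 5.56 to 12.1 (median 8.86) in transplanted libraries, and *Phf11d*, a zinc finger protein, at 9.1, 3.2 and 13 against 19.8 to 47.3 (median 30.2). *Mab21l2* was near 0 in every young library and at 0.301 to 4.41 (median 2.49) after transplantation. *Gipc2*, an adaptor protein, was called although its ranges overlapped, since CD150low libraries held 0.32, 1.6 and 0.99 FPKM and CD150high libraries 11.5, 3.7 and 6.0.

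Most of the list did not keep the level it had in fresh old HSCs. Against fresh old HSCs, 64 of 90 tested list genes (71.1%) were called lower after transplantation, with a median of -1.45. Among the 90 are 17 genes whose means reached 1 FPKM in fresh old HSCs but not in young HSCs or either transplanted group. *Zg16* too stayed under 1 FPKM in every transplanted library, and further such genes were not counted. All of these entered the test through the group where they were high, which favoured a call of lower. Over all 11623 genes tested there, 10.0% were called lower and 7.22% higher, with a median of -0.08. Several of the strongest markers of fresh old HSCs were almost gone. *Sbspon*, an extracellular matrix protein, stood at 36.8, 52.0 and 53.7 FPKM in fresh old HSCs, at 0.0, 0.7 and 1.1 in young HSCs and at 0.157 to 3.77 (median 0.871) after transplantation. *Gpr183*, a chemotactic receptor for oxysterols, stood at 51.7, 42.7 and 39.2 FPKM in fresh old HSCs and at no more than 1.12 in any young and 0.55 in any transplanted library. *Zg16*, a lectin, was at 46.3 ± 14.8 FPKM (SD, n = 3) in fresh old and at most 0.527 in transplanted libraries. The fall from fresh old HSCs was -4.52 for *Sbspon*, -5.17 for *Gpr183* and -5.32 for *Zg16*. The latter pair passed the 1 FPKM limit of that fit only through fresh old HSCs, where both were high. *Gpr183* was 1 of 26 list genes that could not be tested against young HSCs because they stayed under 1 FPKM in all 3 groups of that comparison. Of these, 17 reached 1 FPKM in fresh old HSCs (means from 1.042 to 44.54), while their highest single value was 1.63 in transplanted and 1.60 in young libraries. The low values follow from how the 17 were defined. Among them *Gabra4* (-0.28), *Trpc1* (-0.85) and *Rorb* (-0.64) were not called lower than in fresh old HSCs. *Ramp2* (0.22), *Cpne8* (0.17), *Casp12* (0.16) and *Gadd45g* (0.14) were tested and had means close to young. *Cpne8*, a calcium-dependent membrane-binding protein, had 22.5, 19.2 and 24.0 FPKM in young and 19.7 to 32.9 (median 23.7) in transplanted libraries, with an interval of -0.17 to 0.51. *Gadd45g*, a growth arrest gene, had 13.8, 15.2 and 8.8 against 10.6 to 19 (median 12.6), with 46.0, 63.3 and 70.5 in fresh old HSCs.

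The 7 list genes called lower than in young HSCs included *Trim47*, *Sult1a1*, *Efna1*, *Klrb1c*, *Itgb3* and *Alcam*. Their transplanted libraries all lay below the young ones, whereas in fresh old HSCs the same genes were above young. *Sult1a1*, a sulfotransferase, stood at 173.2, 163.6 and 181.7 FPKM in young and at 865.0, 630.3 and 458.6 in fresh old HSCs. It stood at 41.5, 20.2 and 24.2 in transplanted CD150low and at 57.9, 50.8 and 51.0 in transplanted CD150high libraries. *Trim47*, a ubiquitin ligase, went from 65.2, 87.9 and 96.3 FPKM in young to 6.24 to 23.1 (median 19.3), against 201.1, 137.3 and 174.8 in fresh old HSCs. The log2 fold changes against young were -2.15 (SE 0.182, limma adjusted p = 7.08e-06) for *Sult1a1* and -2.23 (SE 0.269, adjusted p = 7.29e-05) for *Trim47*. *Itgb3*, the beta subunit of an integrin of platelets and HSCs, stood at 5.4, 4.1 and 5.7 FPKM in young and 0.793 to 2.05 in transplanted libraries. *Efna1*, an ephrin ligand, fell by 1.88 and *Klrb1c*, a lectin-like receptor with close paralogs whose reads may be shared, fell by 1.62 on the log2 scale. *Alcam*, an adhesion molecule, was the weakest of them at -1.0 (SE 0.220), and leaving out 1 library took it under 2-fold in 4 of 9 cases (-0.88 to -0.99).

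**Figure D2:**
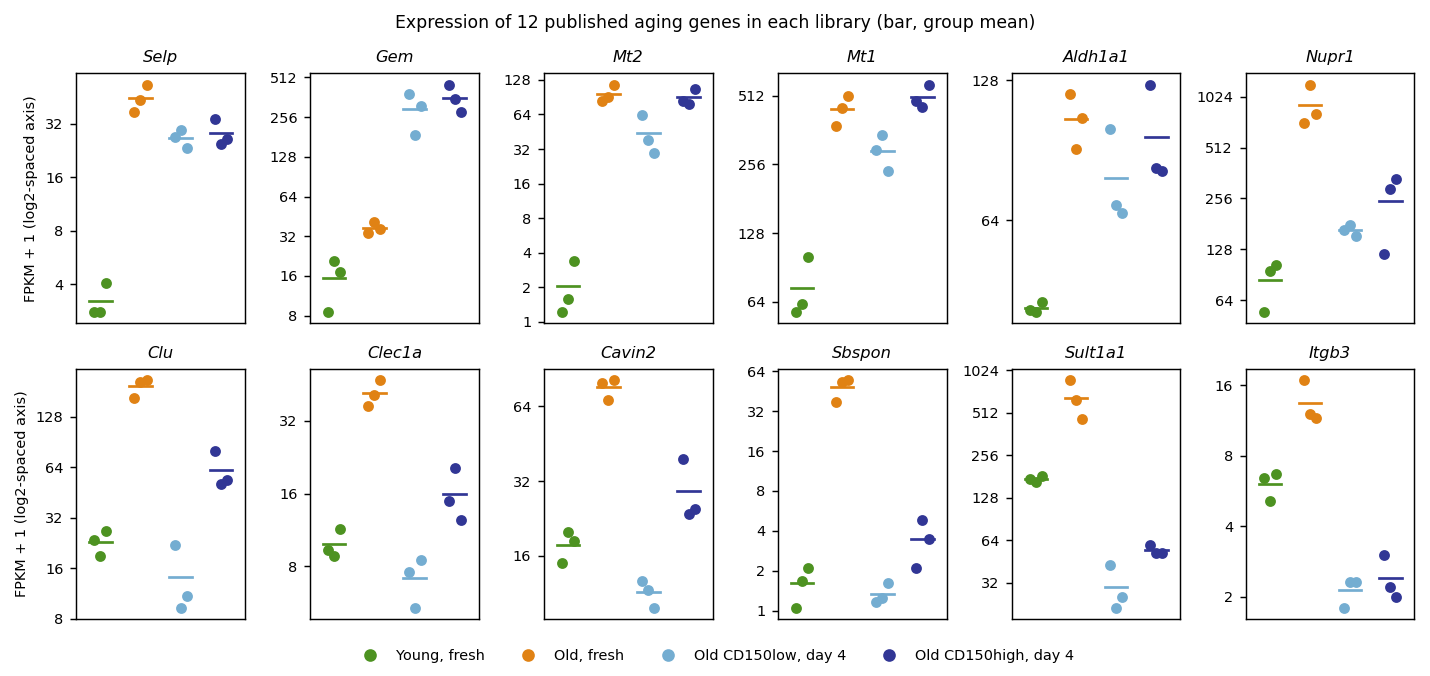
FPKM + 1 on a log2-spaced axis of 12 published aging genes in each library of young (green), fresh old (orange), transplanted CD150low (light blue) and transplanted CD150high (dark blue) HSCs, 3 libraries each, with bars at the group means. *Selp* and *Mt2* remain far above young, *Sbspon* lies far below fresh old HSCs, and *Sult1a1* and *Itgb3* lie below it.

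The transplanted CD150low and CD150high cells were set beside each other for the same list. Against young HSCs, 12 list genes were called higher and 7 lower in CD150low libraries (median -0.07), and 19 higher and 7 lower in CD150high libraries (median 0.37). Among all genes, 4.42% and 6.08% were called in CD150low and 4.63% and 6.18% in CD150high libraries. All 3 CD150high libraries lay above all 3 CD150low libraries for 25 of the 73 list genes (34.2%), where 6.67% of all genes did so, and below them for 4 (5.48%), *Lamp2*, *Meis2*, *Ptprk* and *Vldlr*, where 6.47% of all genes did so. The median difference of the list was 0.28, against 0.0 over all genes. No single gene passed limma at an adjusted p under 0.05 in this comparison (0.0%), the smallest adjusted p was 0.0768, and 1107 genes had an unadjusted p under 0.05. *Clu*, a secreted chaperone, held that smallest value. It stood at 22.6, 17.9 and 25.5 FPKM in young HSCs, 164.4, 203.6 and 209.5 in fresh old, 21.1, 8.3 and 10.0 in CD150low and 79.0, 50.0 and 53.0 in CD150high libraries. The arms differed by 2.20 (SE 0.298), so its pooled difference of 0.31 from young joined a CD150low group at or under young with a CD150high group above it. *Vwf*, the von Willebrand factor gene, showed 21.3, 19 and 15.6 FPKM in CD150low and 45.0, 41.2 and 63.5 in CD150high libraries, against 29.5, 16.5 and 18.1 in young HSCs. The arm difference of *Vwf* was 1.36 (SE 0.239, limma adjusted p = 0.0831). *Cavin2*, a caveolar coat protein, and *Clec1a*, a C-type lectin, were the 2 list genes with all CD150low libraries below and all CD150high libraries above young HSCs, a pattern seen in 8 of all genes tested. *Cavin2* stood at 14, 18.9 and 17.4 FPKM in young, 11.7, 10.7 and 8.9 in CD150low and 38.4, 22.6 and 23.6 in CD150high libraries, and *Clec1a* at 8.4, 7.8 and 10.4, then 6.6, 4.4 and 7.5, then 13.9, 19.4 and 11.4. Their pooled differences from young were 0.03 and 0.10, and the difference between the arms did not pass the test for either gene (limma adjusted p = 0.0831 and 0.188). Both were singled out after their values were seen. *Gstm2*, *Cysltr2*, *Fhl1* and *Aspa* were further genes called higher in CD150high but not in the pooled comparison, whereas the arms differed by only 0.08 for *Selp* (SE 0.228) and 0.32 for *Gem* (SE 0.318). The CD150low and CD150high donor cells had been separated by CD150 before transplantation, and *Slamf1*, which encodes CD150, stood at 14.2, 14.9 and 16.8 FPKM in CD150low and 28.2, 26.9 and 33.3 in CD150high libraries on recovery. 

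Many cell cycle genes were called higher than in young HSCs. Of 54 tested G2/M genes 36 were called higher than in young HSCs and none lower, with a median of 1.24. Of 42 S phase genes 21 were called higher and none lower, with a median of 1.00. These are 66.7% and 50.0% of the lists, where 4.25% of all tested genes were called higher. All 6 transplanted libraries lay above the young ones for 47 of the G2/M genes and 35 of the S phase genes, as they did for 15.5% of all tested genes. *Rrm2*, a subunit of the ribonucleotide reductase that makes deoxynucleotides, stood at 34.3, 28.4 and 22.6 FPKM in young and at 100 to 152 (median 128) in transplanted libraries, a log2 fold change of 2.11 (SE 0.144). *Rrm1*, the other subunit, stood at 46.0, 51.1 and 48.8 against 116 to 151 (median 140), a change of 1.46. *Ube2c*, which conjugates ubiquitin for the anaphase-promoting complex, stood at 67.1, 70.1 and 79.8 FPKM against 199 to 286 (median 233), and *Cdca3*, a trigger of mitotic entry, at 24.5, 21.4 and 19.8 against 67.8 to 101 (median 81.1). *Nuf2* of the kinetochore (1.87) and *Mki67*, the proliferation antigen (1.60), behaved alike. *Ube2c* stood at 11.7, 0.0 and 22.5 FPKM in fresh old HSCs, below young. In fresh old HSCs 55.6% of the G2/M genes and 38.1% of the S phase genes were called lower than young, and none higher. Among all genes tested there 1.73% were called lower, and that comparison uses the same young libraries. The kinesin gene *Kif23* was the exception among G2/M genes, at -0.38 (SE 0.202, limma adjusted p = 0.178). The CD150low and CD150high libraries differed by no more than 0.40 for these named genes.

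G2/M promoters commonly hold a CHR element (TTTGAA) with CCAAT boxes, bound by the DREAM complex and NF-Y, and S phase promoters hold E2F sites. The windows of *Cdca3* (chr6:124829926-124830225), *Ube2c* (chr2:164769679-164769978) and *Rrm1* (chr7:102441445-102441744) are shown as examples from genes that rose, on the plus strand of GRCm38.p6 from RefSeq. Capitals mark TTTGAA and CCAAT on either strand in the first pair and E2F-type letters (TTCCCGCC, TTTCCCGC or TTTGGCGC, of which the first pair of words can overlap) in *Rrm1*.
Cdca3: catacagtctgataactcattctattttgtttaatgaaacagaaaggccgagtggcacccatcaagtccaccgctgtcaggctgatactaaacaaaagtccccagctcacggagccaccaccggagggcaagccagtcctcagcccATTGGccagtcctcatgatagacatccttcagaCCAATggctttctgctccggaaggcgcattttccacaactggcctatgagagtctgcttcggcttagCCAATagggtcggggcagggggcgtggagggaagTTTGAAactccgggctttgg
Ube2c: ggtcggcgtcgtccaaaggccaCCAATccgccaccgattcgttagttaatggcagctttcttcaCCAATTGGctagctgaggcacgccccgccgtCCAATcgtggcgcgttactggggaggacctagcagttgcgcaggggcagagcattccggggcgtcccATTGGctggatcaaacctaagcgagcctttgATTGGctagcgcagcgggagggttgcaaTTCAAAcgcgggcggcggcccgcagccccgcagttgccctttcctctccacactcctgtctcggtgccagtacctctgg
Rrm1: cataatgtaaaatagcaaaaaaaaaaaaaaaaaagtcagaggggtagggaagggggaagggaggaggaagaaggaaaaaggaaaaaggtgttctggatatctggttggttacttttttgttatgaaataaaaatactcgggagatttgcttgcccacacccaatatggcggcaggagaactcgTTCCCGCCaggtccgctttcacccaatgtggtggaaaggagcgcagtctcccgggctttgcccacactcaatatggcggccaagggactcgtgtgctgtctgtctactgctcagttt
*Cdca3* holds 1 CHR and 3 CCAAT matches and *Ube2c* 1 CHR and 6 CCAAT matches, with 1 stretch read as CCAAT on both strands, while *Rrm1* holds 1 E2F match. TTTGAA was found in 33 of the 47 G2/M genes with a promoter entry (70.2%) and CCAAT in 36 (76.6%), against 15.0% and 43.5% of tested genes. Both were found in 55.3% of these G2/M genes and in 6.41% of tested genes. E2F letters were found in 15 of 31 S phase genes with an entry (48.4%) and in 7.27% of tested genes. *Nuf2* and *Rrm2*, which rose most in each list, held none of the letters searched for their list. A match describes the letters of the window and does not show binding.

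Some genes of ribosome biogenesis and respiration were called higher, and most were not called. Of 25 ribosome biogenesis genes 6 were called higher and none lower (median 0.68), with *Nolc1*, a nucleolar chaperone of snoRNPs, at 1.43 and *Fbl*, the rRNA methyltransferase fibrillarin, at 1.30. *Fbl* stood at 64.8, 68.5 and 76.1 FPKM in young and at 151 to 212 (median 169) in transplanted libraries. Of 23 oxidative phosphorylation genes 4 were called higher and none lower (median 0.61). *Cox5a*, a subunit of cytochrome c oxidase, stood at 460.8, 402.6 and 434.3 FPKM against 932 to 1229 (median 1054). *Atp5b*, the catalytic subunit of ATP synthase, stood at 814.4, 865.2 and 870.5 against 1676 to 1911 (median 1829). All 6 transplanted libraries exceeded young ones for 19 of these 23 genes, as they did for 15.5% of all tested genes. Even so, 18 of these 23 were uncalled with intervals inside 2-fold, as were 59.0% of all tested genes. Glycolysis had 1 of 14 genes called higher, *Pgk1* (1.05, and 0.99 without young replicate 3), and a median of 0.60. Cholesterol synthesis had 1 of 22 called higher and 1 lower, *Mvk* and *Msmo1*, each with overlapping ranges and lost when single libraries were left out, and a median of -0.16. Among protein folding genes 4 of 23 were called higher, including the cytosolic chaperone *Hsp90aa1* (1.29, 501.3, 534.3 and 600.8 FPKM against 1207 to 1441) and the mitochondrial chaperonin pair *Hspd1* and *Hspe1*. The 3 called lower were the stress-signalling genes *Trib3* (-2.36) and *Ddit3* (-1.37) and the endoplasmic reticulum cochaperone *Dnajb9* (-1.38). *Ddit3*, which encodes the factor CHOP, stood at 63.1, 60.3 and 42.7 FPKM in young and 15.1 to 27.5 (median 20.8) in transplanted libraries. The shares called higher were 24.0% for ribosome biogenesis, 17.4% for oxidative phosphorylation and 17.4% for folding, against 4.25% of all tested genes. Glycolysis (7.14%) and cholesterol synthesis (4.55%) were near that share. Called lower were 4.55% of the cholesterol genes and 3 of the 23 folding genes, against 6.11% of all tested genes. With quantile scaling the oxidative phosphorylation count dropped to 1 (median 0.32), glycolysis to 0 (median 0.46) and the folding genes to 1 higher and 3 lower. None of 12 housekeeping genes was called, and their median moved from 0.16 to -0.07 with that scaling.

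**Figure D3:**
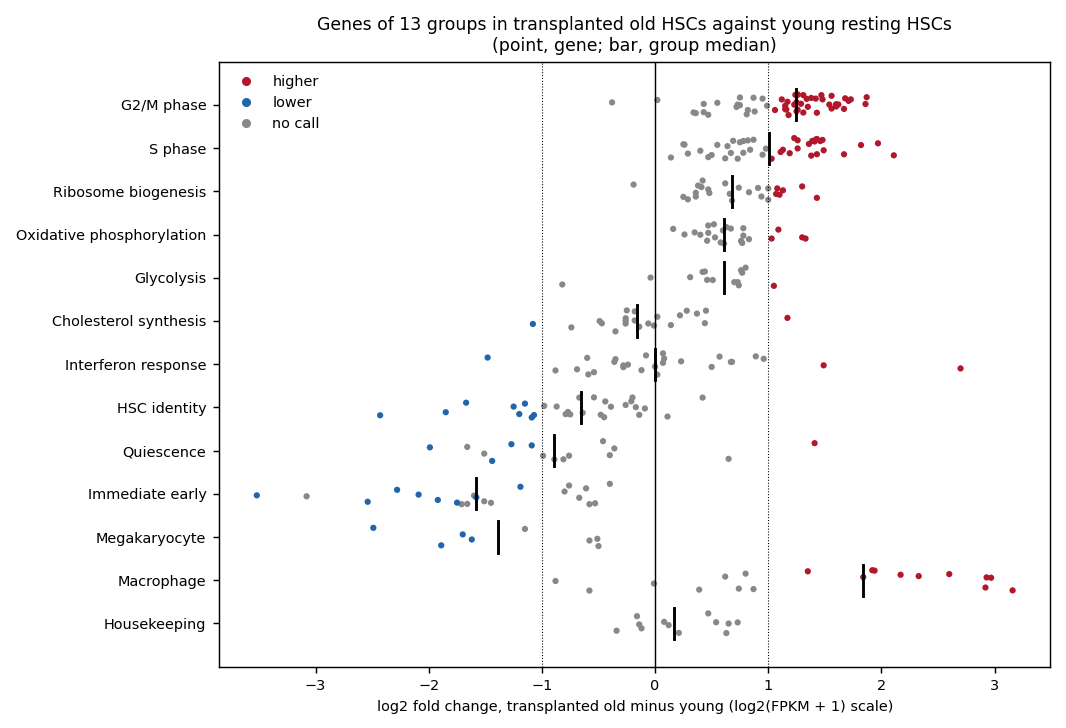
Log2 fold change of each tested gene in 13 groups, transplanted old minus young HSCs, on the log2(FPKM + 1) scale. Points are genes (red called higher, blue called lower, grey not called), black bars are group medians and dotted lines mark a 2-fold change, with G2/M genes highest among the cell cycle and metabolic groups at a median of 1.24 and the macrophage markers at 1.84.

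Genes that define HSCs were lower or uncalled. Of 28 HSC identity genes 8 were called lower and none higher, with a median of -0.65. These 8 are 28.6% of the list, where 6.11% of all tested genes were called lower, and all 6 transplanted libraries lay below young for 16 of the 28, as they did for 14.4% of all tested genes. *Pdzk1ip1*, a small membrane protein enriched in HSCs, stood at 700.9, 736.4 and 661.8 FPKM in young, 947.7, 1442.1 and 1138.9 in fresh old and 92.8 to 196 (median 119) in transplanted libraries. *Mllt3*, a chromatin reader that maintains HSCs, stood at 146.6, 196.5 and 136.8 in young, then at 36, 36.4 and 39.4 in CD150low and 66.9, 62.3 and 62.7 in CD150high libraries. The log2 fold changes were -2.43 (SE 0.138) for *Pdzk1ip1* and -1.67 (SE 0.126) for *Mllt3*. The transcription factors *Runx1* (10.5, 12.6 and 37.3 FPKM in young), *Hoxb5*, *Hlf* and *Meis1* fell by 1.25, 1.15, 1.09 and 1.07 on the log2 scale, as did the endothelial-type receptor *Robo4* (-1.20). *Runx1* averaged 6.703 FPKM over the 6 transplanted libraries, so the size of its fall leaned on young replicate 3 at 37.3. Its change without that library is not given here. Among markers of the sort, *Ly6a* (Sca-1) was at 0.42 and *Slamf1* at -0.09, neither called. The pooled value of *Slamf1* joins CD150low libraries at 14.2 to 16.8 FPKM with CD150high libraries at 26.9 to 33.3, around young libraries at 17.5, 24.1 and 27.2. *Kit* was at -0.98 with 75.4, 49.9 and 49.7 FPKM in young and 23.1 to 38.9 (median 27.2) after transplantation, just under the 2-fold limit, and was called lower under 7 of 14 alternatives. *Procr*, which encodes the HSC marker EPCR, was at -0.75, with all transplanted libraries below young. 

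Of 15 genes tied to quiescence 4 were called lower and 1 higher (median -0.89). These are 26.7% and 6.67% of the list, against 6.11% and 4.25% of all tested genes. *Txnip*, an inhibitor of thioredoxin and glucose uptake, stood at 459.8, 422.5 and 336.8 FPKM in young and 86.0 to 107 (median 103) in transplanted libraries, a change of -1.99 (SE 0.113). *Cdkn1c*, the cell cycle inhibitor p57, stood at 33.3, 22.9 and 43.4 against 7.92 to 20.3 (median 10.6), a change of -1.44. The antiproliferative gene *Btg1* (-1.27) and *Rbl2*, the pocket protein p130 (-1.09), also fell. *Cdkn1a*, the inhibitor p21, was the member called higher at 1.41, with 3.5, 4.0 and 9.1 FPKM in young against 28.8, 18.3 and 15.5 in CD150low and 24.5, 9.2 and 6.2 in CD150high libraries. These ranges overlapped, and the call was lost without young replicate 1 (1.18, limma adjusted p = 0.0758) or young replicate 2 (1.27, adjusted p = 0.072). Among 18 p53 targets 2 were called higher, *Cdkn1a* and the nuclease gene *Aen* (1.06, and 0.96 without young replicate 1), and 3 lower, among them the death receptor *Fas* (-1.52) and *Trp53inp1* (-1.62), with a median of -0.69. The shares of the p53 list were 11.1% higher and 16.7% lower. *Btg2*, in both lists, was at -1.66 and at -0.26 without young replicate 3, and *Egr1* of the quiescence list was at -1.51 and at 0.08 without it, none of these called. The medians without that library were -0.72 for the quiescence genes and -0.45 for the p53 targets.

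Progenitor genes went both ways. Of 13 tested 2 were called higher, *Cd48* among them, and 3 lower, *Pf4*, *Flt3* and *Cd34* (median -0.37). These are 15.4% and 23.1% of the list, against 4.25% and 6.11% of all tested genes. *Cd48*, a surface marker absent from HSCs by the sort, stood at 5.5, 1.0 and 4.1 FPKM in young, 42.2, 94.3 and 53.4 in transplanted CD150low and 13.4, 16.2 and 25.0 in transplanted CD150high libraries, a change of 3.06 (SE 0.356). The CD150low libraries were all above the CD150high ones, and the arm difference of -1.70 (CD150high minus CD150low) had an adjusted p of 0.209 in limma. *Cd34* stood at 77.6, 89.9 and 77.3 in young, 72.5, 52.2 and 81.1 in CD150low and 27.9, 20.8 and 8.1 in CD150high libraries, so its call of -1.23 rested on the CD150high libraries and was -0.99 without CD150high replicate 3. *Flt3*, a receptor of lymphoid-primed progenitors, fell from 2.9, 3.7 and 3.1 FPKM to at most 1.31. *Pf4*, the platelet chemokine, stood at 547.9, 433.1 and 322.8 in young and 53.8 to 107 (median 76.5) in transplanted libraries, and was already at 98.0, 128.9 and 94.9 in fresh old HSCs. With *Treml1*, *Ppbp* and *Clec1b* it made 4 of 8 megakaryocyte genes called lower, none higher (median -1.39). These 4 are 50.0% of the tested list, against 6.11% of all tested genes called lower. 

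Macrophage markers were higher in the transplanted libraries. Of 19 tested 11 were called higher and none lower (median 1.84), which is 57.9% of the list against 4.25% of all tested genes called higher. Without the low-value filter 5 were called higher. They were led by the complement subunits *C1qc* (3.16), *C1qb* (2.97) and *C1qa* (2.93). *C1qc* stood at 1.8, 4.0 and 3.4 FPKM in young, 74.1, 28.9 and 9.0 in CD150low and 66.3, 20.7 and 58.1 in CD150high libraries. Without *Apoe* and *Lyz2*, which were left out after their values were seen because young HSCs held them above 20 FPKM, the other 19 of the 21 markers summed to 43.7 to 45.2 in young, 16.9 to 20.9 in fresh old, 485.3, 229.7 and 75.4 in CD150low and 375.8, 168.7 and 411.6 in CD150high libraries. *Apoe* (-0.88) and *Lyz2* (-0.58) went the other way, uncalled, and *Spic* (-0.01) and *Adgre1* (0.74) were uncalled too. With *Apoe* and *Lyz2* the 21 markers summed to 1409.3 to 1533.1 in young and 694.9 to 1664.2 in transplanted libraries, so the full sum did not rise. No defining macrophage marker was at 0 in all 6 transplanted libraries, and none was at 0 in all 3 young ones. *Marco* was at 0 in 4 and *Timd4* in 2 of the 6 transplanted libraries. Outside the aging list the largest rises without overlap were those of *Fabp4*, *Ear2*, *Ccl6* and *C1qc*. *Fabp4*, a lipid-binding protein, stood at 176.5, 101.7 and 9.2 in CD150low and 95.7, 12.0 and 29.2 in CD150high libraries (4.10). *Ear2*, an eosinophil-type ribonuclease listed at 0 in all young and fresh old libraries, ranged from 2.18 to 48.6 (3.74), and the chemokine *Ccl6* from 8.75 to 34.4 (3.36). All of them were highest in CD150low replicate 1 and lowest in CD150low replicate 3, the libraries with the highest and the lowest sum of the 19 markers. In CD150low replicate 3 *Selp* was at 22.3, *Mt2* at 28.3, *Mt1* at 239.2 and *Gem* at 311.4 FPKM, all above every young library. For *Selp*, *Mt2* and *Mt1* these were the lowest values of the 6 transplanted libraries, which was not so for *Gem*. The marker sum of this library, 75.4, was itself above the young range. The part of macrophage RNA in any of these rises was not tested.

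**Figure D4:**
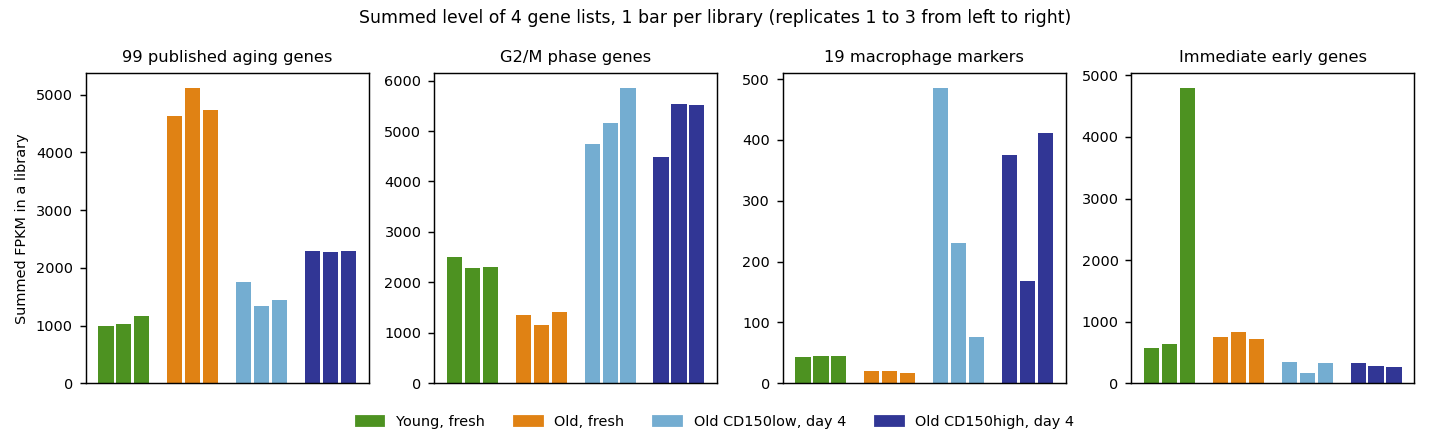
Summed FPKM per library of the 99 published aging genes, the G2/M genes, 19 macrophage markers and the immediate early genes, as bars from 0 for young, fresh old, transplanted CD150low and transplanted CD150high HSCs. The macrophage sum varies from 75.4 to 485.3 among transplanted libraries, and the immediate early sum of young replicate 3 reaches 4795.1.

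Markers of other lineages went both ways. The erythroid list had 2 of 8 genes called higher, the beta-globins *Hbb-bt* (64.9, 85.3 and 95.7 FPKM in young against 399 to 706) and *Hbb-bs*, near-identical copies whose reads may be shared, and *Rhag* called lower. The alpha-globins *Hba-a2* (-2.11) and *Hba-a1* (-1.43) were uncalled, each listed at 0 in 3 of 6 transplanted libraries. The list median was -0.87. Its shares were 25.0% higher and 12.5% lower, against 4.25% and 6.11% of all tested genes. The neutrophil gene *S100a8* stood at 4.7, 10.9 and 12.5 FPKM in young and is listed at 0 in all 6 transplanted libraries, as are *S100a9* and 4 more of 11 neutrophil markers. Of these 4, *Mmp8* was at 0 in all young libraries too. *Ngp*, *Retnlg* and *Mmp9* averaged only 0.33 to 0.45 FPKM in young, too low to judge a fall. Of 4 tested B cell genes *Cd79b* and *Vpreb1* were called lower, both lost when single libraries were left out, none of 8 T cell genes reached the level for testing, and *Cd3e*, *Cd3g* and *Cd8a* are listed at 0 in the young and transplanted libraries alike. Of 6 endothelial or stromal genes 1 was called lower.

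Immediate early genes, which respond within minutes to stimulation, were lower after transplantation, and young replicate 3 stood apart for them. Of 21 tested 8 were called lower and none higher, with a median of -1.58. These 8 are 38.1% of the tested list, against 6.11% of all tested genes called lower. The list summed to 579.8, 641.4 and 4795.1 FPKM in young, 713.7 to 828.5 in fresh old and 166.2 to 340.2 in transplanted libraries. *Fos* stood at 4.4, 10.4 and 1136.8 in young against 0.399 to 11.1 (median 5.18) and was not called (limma adjusted p = 0.0913). *Dusp1*, a phosphatase of MAP kinases, stood at 47.0, 54.9 and 915.4 against 3.23 to 22.1 and was called at -3.52 (SE 0.791), and at -2.14 without young replicate 3. *Nfkbia*, the NF-kappaB inhibitor, was alike in the young libraries, with 194.8, 197.5 and 212.0 in young against 45.9 to 76.5 (median 59.8), a change of -1.75. Leaving out 1 library in turn gave 6 to 11 genes called lower and medians between -2.0 and -0.56, the latter without young replicate 3. Without the low-value filter 4 were called lower.

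Interferon-induced genes showed no common direction. Of 27 tested 2 were called higher, *Ifi27l2a* (2.70) and the ubiquitin-like modifier *Isg15* (1.49), and 1 lower, the antiviral membrane protein *Ifitm1* (-1.48), with a median of 0.00. These are 7.41% and 3.7% of the list, near the 4.25% and 6.11% of all tested genes. *Ifi27l2a* stood at 11.9, 8.2 and 9.2 FPKM in young, 2.7, 1.7 and 0.2 in fresh old and 43.2 to 114 (median 71.1) in transplanted libraries. *Ifitm1* stood at 4019.7, 3468.4 and 3352.3 in young and 848 to 1695 (median 1347) in transplanted libraries, whereas its paralog *Ifitm3* was at 0.23, uncalled. *Bst2*, or tetherin, had all transplanted libraries above young (0.96) without reaching 2-fold.

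The study also selected age-related genes from its own fresh young and old libraries, and these lists are not independent of the young libraries used here. Of 220 tested genes selected as higher with age 20 were called higher and 20 lower than young after transplantation (median 0.09). Of 237 selected as lower with age 88 were called higher and 30 lower (median 0.60). These are 9.09% in each direction for the first list and 37.1% and 12.7% for the second, against 4.25% and 6.11% of all tested genes. The highest members of the second list were the macrophage genes *C1qc* (3.16) and *C1qa* (2.93), followed by the histone gene *H1f5* (2.73). The study reports proliferation pathways among its genes lower with age. Without the low-value filter 17 genes of the second list were called lower. The first list summed to 2123.9 to 2333.5 FPKM in young, 7375.2 to 8366.2 in fresh old, 2261.1 to 3065.8 in transplanted CD150low and 3466.4 to 3763.8 in transplanted CD150high libraries. *Gem* is part of this sum, and the median change of the list against young was -0.11 in CD150low and 0.14 in CD150high libraries. The second summed to 5374.9 to 5919.1 in young, 1754.7 to 2285.0 in fresh old and 9080.2 to 9959.7 in the transplanted libraries.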

How the data were processed

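Bulk RNA of sorted mouse HSCs was sequenced as full-length cDNA libraries. The deposited values are FPKM per gene and library. According to the submitters' processing notes, the authors used Trim Galore, HISAT2 2.0.0 with the mm10 build, SAMtools 1.14, HTSeq 0.12.4, Cufflinks and DESeq2 1.22.2, but which of these made the FPKM values is not given in the sources used here. Counting ignored strand, so overlapping and antisense genes are uncertain.

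Samples were grouped by their GEO labels. Rows with a repeated symbol (10 of 21835) were summed. No read totals are given, so no counting interval was computed. Genes with a group mean of at least 1 FPKM were fitted as log2(FPKM + 1) with limma 3.58.1 (R 4.3.3, trend of variance on mean, moderated two-sided tests), 1 fit for young, CD150low and CD150high libraries and separate fits for comparisons with fresh old HSCs. P-values were Benjamini-Hochberg adjusted over all genes of a fit, and the comparison of CD150high with CD150low used no fold threshold. Summaries used Python 3.11.15 and pandas 2.3.3. The fit was tested on simulated data, where it recovered 98 of 100 genes changed by 2 and 99 of 100 changed by 3 on the log2 scale between transplanted old and young libraries (11192 genes, 4 false calls). These counts are from the first draw. The changed genes were taken only from those with means above the 1 FPKM limit for testing, and the noise was normal and independent between genes. Recovery of genes near 1 FPKM or of changes near 2-fold was therefore not tested.

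The members and the gene lists were chosen with earlier results of these data known. Named genes were the 6 largest rises and 6 largest falls without overlap, the 5 highest and 5 lowest published aging genes, up to 3 at each end of every other list, genes the study names and sort and macrophage markers. All aging genes called, and those described by group, were added after their values were seen. Alternatives were a pseudocount of 0.1, no low-value filter, median-ratio and quantile scaling, the replicate number as a block and leaving out each library. A minimum of 10 FPKM was added after seeing the data. Methylation, chromatin accessibility and single-cell data were not used here, and a few genes are not reported here, though counts over lists include them.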

Additional observations from a re-analysis of the deposited data

How the results depend on the processing

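No call of a named gene reversed its direction under any alternative tried. Of 88 named genes called in transplanted old against young HSCs 63 kept the call under every alternative, and of 82 uncalled ones 10 gained it under at least 1. Without the low-value filter the genes called lower than young were 457 in CD150low and 426 in CD150high libraries, the aging genes called higher in fresh old HSCs were 30, and 5 genes differed between the transplanted groups. Median-ratio scaling gave 1 gene differing between the transplanted groups. Raising the minimum to 10 FPKM, chosen after seeing the data, gave 358 genes and 3 aging genes called lower than young. Fewer genes are tested under that minimum and more without the filter, and the cause of the other differences was not tested. Quantile scaling took *Alcam* (-0.87), *Nhp2*, *Cox5a*, *Atp5b*, *Pgk1*, *Hsp90aa1* and *Hspe1* under 2-fold. Leaving out 1 library at a time gave 438 to 520 genes higher and 542 to 730 lower than young, 451 (without young replicate 2) to 754 lower in CD150low libraries, 12 to 17 aging genes higher and 6 to 9 lower, and 0 to 33 genes differing between the transplanted groups, the 33 without CD150low replicate 3.

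Deviations of same-numbered libraries from their group means correlated at -0.103 to 0.111 and those of different numbers at -0.211 to 0.251. No pairing by replicate number was seen, but with 3 libraries in a group this cannot exclude it, and the labels do not state it. With the replicate block 492 genes were called higher and 703 lower than young, and 2 genes differed between the transplanted groups. Depth limits genes near 1 FPKM most, because the transplanted libraries were the shallower ones.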

Other observations

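Fresh old HSCs sorted into 4 groups of increasing CD150 (G1 to G4, 3 libraries each) give the levels of some of these genes before transplantation, in a separate experiment. By the labels the same 3 mice gave a library to each group, so each SD is over those mice and the groups are not separate animals. *Clu* averaged 87.97 FPKM in G1 and 278.1 in G4 (SD 15.8 and 19.6), whereas the transplanted CD150low and CD150high libraries held 8.3 to 21.1 and 50.0 to 79.0. *Vwf* averaged 33.8 and 82.04 (SD 5.25 and 14.5), and *Slamf1*, which encodes CD150, 24.61 and 90.2 (SD 8.14 and 11.5). *Selp* averaged 39.94 and 80.07 (SD 14 and 3.54), although it was alike in both transplanted groups. *Sult1a1* averaged 473.3 and 611.6 in G1 and G4 and was at 20.2 to 57.9 after transplantation. *Cd34* averaged 53.85 and 29.67 (SD 22 and 7.13), and *Cd48* did not exceed 0.828 FPKM in any of the 12 libraries. *C1qa* is listed at 0 in all 12 of them.

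Among genes that the study tied to CD150 level on the G1 to G4 libraries, 4 of 109 tested positive genes were called higher and 14 lower than young after transplantation (median -0.12), and 12 of 94 negative genes were called higher and 11 lower (median 0.00). These are 3.67% and 12.8% of the positive and 12.8% and 11.7% of the negative genes, against 4.25% and 6.11% of all tested genes. The histone genes *H1f5* (2.73) and *H3c6* (-2.72) went opposite ways, and both are among the genes that the study selected as lower with age. *H1f5* stood at 9.3, 7.3 and 10.4 FPKM in young and 40.3 to 89.3 after transplantation, and *H3c6* at 20.1, 20.0 and 33.3 against 0.91 to 4.5. Both belong to families of near-identical genes, so their reads may be shared with copies.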
